A study of Homo sapiens with 480 samples.

Results

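Transcripts of 9 genes of transforming growth factor beta (TGF-beta) signalling were followed in single cells during the reprogramming of human fibroblasts: the ligand genes TGFB1, TGFB2 and INHBA, the latency and microfibril genes LTBP1 and LTBP2, the receptor genes TGFBR1 and TGFBR2, the signal transducer SMAD3 and the target TGFBI. They were chosen by name, with earlier results of these data known, and are 9 of the 27021 genes in each table. All 9 were present in all 5 tables, and each had a mean level of 1 or more in at least one group. BJ is an established fibroblast line from neonatal human skin, and every group was derived from it. The starting group was wild-type, untreated BJ. In the other groups OCT4, SOX2, KLF4 and MYC had been expressed from viruses, for 2 days, for 8 days or for 16 days, and the cells of day 16 were sorted on TRA-1-60, a surface epitope of pluripotent cells, giving a positive fraction and a negative one. From each group 96 cells were caught on microfluidic C1 chips, and their polyadenylated RNA was sequenced.

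TGF-beta ligands are secreted in a latent complex that LTBP1 ties to the extracellular matrix. Once released, the ligand binds the type II receptor kinase TGFBR2, which activates the type I kinase TGFBR1, and TGFBR1 phosphorylates SMAD2 and SMAD3, which then enter the nucleus with SMAD4. Activin A, a dimer of the INHBA product, reaches the same SMADs through activin receptors. In fibroblasts the pathway is known for raising matrix genes, in reprogramming for opposing the passage from a mesenchymal to an epithelial state, and in human pluripotent cells the activin and Nodal branch is known for sustaining pluripotency.

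Promoter sequences are shown for INHBA, LTBP2, TGFBR2 and TGFBI, the members that were at least 2-fold lower in the TRA-1-60 positive than in the negative fraction under every processing alternative tried. Each run is the 250 bases before the RefSeq start on GRCh38.p14, 5′ to 3′ on the gene's strand, with CG dinucleotides in capitals. The expression values were made on hg19, so these coordinates belong to another build. INHBA lies at chr7:41703091-41703340 on the minus strand, LTBP2 at chr14:74612238-74612487 on the minus strand, TGFBR2 (the first of 2 starts listed) at chr3:30606106-30606355 on the plus strand and TGFBI at chr5:136028738-136028987 on the plus strand.
INHBA: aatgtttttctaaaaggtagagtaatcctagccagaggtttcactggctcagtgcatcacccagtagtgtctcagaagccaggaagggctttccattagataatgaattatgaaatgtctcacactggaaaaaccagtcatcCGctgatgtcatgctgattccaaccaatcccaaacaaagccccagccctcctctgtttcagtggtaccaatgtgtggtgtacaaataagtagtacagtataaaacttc
LTBP2: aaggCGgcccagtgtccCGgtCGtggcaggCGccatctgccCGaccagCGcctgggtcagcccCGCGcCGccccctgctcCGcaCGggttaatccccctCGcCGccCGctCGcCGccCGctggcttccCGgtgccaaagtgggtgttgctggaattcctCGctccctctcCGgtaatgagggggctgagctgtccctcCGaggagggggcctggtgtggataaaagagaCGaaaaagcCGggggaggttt
TGFBR2: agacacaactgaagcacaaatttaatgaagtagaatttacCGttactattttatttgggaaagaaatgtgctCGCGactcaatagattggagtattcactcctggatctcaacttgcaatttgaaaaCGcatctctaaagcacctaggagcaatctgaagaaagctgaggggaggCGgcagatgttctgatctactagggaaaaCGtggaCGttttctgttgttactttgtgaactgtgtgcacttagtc
TGFBI: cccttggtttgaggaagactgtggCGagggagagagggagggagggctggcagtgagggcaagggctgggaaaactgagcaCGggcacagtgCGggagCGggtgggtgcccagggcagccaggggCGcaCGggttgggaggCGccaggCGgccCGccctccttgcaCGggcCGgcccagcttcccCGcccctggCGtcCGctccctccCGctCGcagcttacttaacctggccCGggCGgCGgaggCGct
The sequences fall on both sides of the average promoter. INHBA and TGFBR2 held 42.8% and 40.8% G or C with 1 and 7 CG dinucleotides, and LTBP2 and TGFBI 68.8% and 72.8% with 23 and 20, where the median of 35097 RefSeq promoters of the same length was 58% with 11.

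All 9 members matched the promoter table by symbol. On both strands, the AP-1 motif TGANTCA was in 0 of the 9 windows and in 6.57% of all promoters. The SMAD motif CAGAC was in 3 of 9 (TGFB2, LTBP1 and TGFBR1) and in 38% of all, and the TEAD motif GGAATG in 1 of 9 (TGFB2) and in 11.9% of all. The letters TATAAA were in TGFB2, 29 bases before the start, and in INHBA, 11 bases before it, against 10.7% of all promoters. No match overlapped a match of another motif, and a missing match says only that the letters are not in the window.

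Levels are FPKM (fragments scaled by transcript length and by the mapped fragments of the cell), here rescaled so that each cell sums to 1000000. Detection in a cell means a value of 1 or more. Cells needed 2000 detected genes or more, ACTB or GAPDH among them, which kept 460 of 480: 92 of BJ, 96 of day 2, 92 of day 8, 95 positive and 85 negative. The median kept cell had between 5678 and 5915 detected genes in the 5 groups, but 32 of 95 positive cells had under 4000, against 3 to 15 cells in the other groups. The labels name no separate cultures, infections or chips, so each group is 1 sample, its cells are not replicates, and no comparison below carries a p-value. The tables hold no read counts, so the depth per cell is unknown; intervals on shares are exact binomial (Clopper-Pearson) 95% intervals and cover the counting of cells only. The tables also stand apart in single genes: RPL21 averaged 1225 at day 2 and 992 in the negative fraction but between 2.49 and 5.90 in the other 3, and GOLGA2P6 and ZNF628 were above 100 in BJ, day 2 and the positive fraction but under 1 in the others. Whether this touches any of the 9 genes was not tested.

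The labels were held against marker genes. The 10 fibroblast markers, collagens, LUM, DCN, PDGFRB, THY1, VIM and S100A4, had a mean of 1 or more for 10 of 10 genes in every group except the positive fraction, where it was 7 of 10. Their summed level per cell had a median of 13848 in BJ, 14692 at day 2 and 15981 at day 8. The median number of these markers detected per cell was 9, 8 and 7 there. The sum did not follow each marker, as COL1A1 had a mean of 635 in BJ and 45.6 at day 8. The summed fibroblast level per cell ran from 5549 to 27498 (median 13804) in the negative fraction and from 25.3 to 12677 (median 1350) in the positive fraction. The 10 pluripotency markers ran the other way, with 10 of 10 at a mean of 1 or more in the positive fraction (median sum 3185) and 4 of 10 in the negative fraction (median sum 58.6), where LIN28A was at 0. KRT5 and TP63 of keratinocytes, PECAM1 and CDH5 of endothelium and CD3E of T cells had means under 1 in every group. Other markers of these cell types did not: 1 to 2 of 6 keratinocyte markers reached a mean of 1, as did 0 to 3 of 6 endothelial and 0 to 3 of 6 blood and immune markers. Among keratins KRT14 averaged 81.6 at day 2, with 60 of 96 cells above 1, and KRT10 31.6 in BJ and 32.9 in the negative fraction. The endothelial receptor gene TEK averaged 37.7 in the negative fraction and 14.2 at day 8, the endothelial junction gene CLDN5 7.51 in the negative and the receptor gene KDR 5.14 in the positive fraction. CD68, a lysosomal gene of macrophages, averaged 17 at day 2 and HBB, a haemoglobin gene, 11. The part of such cells in the members' values was not tested.

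INHBA encodes the beta A subunit of inhibins and activins and had its highest mean of the 5 groups in the negative fraction. In BJ the level in single cells ran from 0 to 279 with a median of 1.97, at day 2 from 0 to 60.6 with a median of 1.03, and at day 8 from 0 to 69.5 with a median of 0.43. The positive cells ran from 0 to 10.6 with a median of 0, and the negative cells from 0 to 203 with a median of 22.2. The negative fraction was thus high as a whole and the positive fraction almost empty of this transcript, although single cells of the groups overlapped. Means were 14.2 in BJ, 6.60 at day 2, 6.97 at day 8, 0.29 among positive and 38.4 among negative cells. INHBA was detected in 91.8% of negative cells (83.8 to 96.6) and in 6.32% of positive cells (2.35 to 13.2), where BJ had 58.7% (47.9 to 68.9). When all 96 negative cells were counted, those left out by the filter included, 82.3% had INHBA. The shares of BJ, day 2 and day 8 had overlapping intervals. The difference between day 2 and BJ lay at the edge of 2-fold (log2 ratio -1.004), was under 2-fold in 7 of 9 alternatives and turned to 0.97 on the FPKM as deposited. On those deposited values the difference between day 8 and day 2 was -1.84, where it was 0.07 on the scaled ones.

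TGFB2 encodes a TGF-beta ligand and was more widely detected in BJ than TGFB1. Its levels ran from 0 to 79 in BJ (median 0.63), 0 to 31.6 at day 2, 0 to 59.4 at day 8, 0 to 14.5 in the positive and 0 to 69.9 in the negative fraction, with a median of 0 in each group but BJ. The share of cells with TGFB2 was 44.6% in BJ (34.2 to 55.3) and 11.5% at day 2 (5.86 to 19.6), with no overlap of intervals. At day 8 it was 22.8% (14.7 to 32.8) and in the negative fraction 23.5% (15 to 34), both overlapping day 2, and in the positive fraction it was 4.21% (1.16 to 10.4). The means of TGFB2 were 5.07, 0.87, 2.73, 0.32 and 4.30 in that order of groups (BJ, day 2, day 8, positive, negative), so the group means were lowest in the positive fraction. The gene TGFB2-OT1 overlaps TGFB2 on the same strand and had means of 4.58, 0.99, 1.88, 1.23 and 2.80, and how reads were split between them is not stated.

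TGFB1, the other TGF-beta ligand gene among the members, was a low transcript, and in 3 groups a few cells set its mean. It was detected in 12% of BJ cells (6.12 to 20.4), 34.4% at day 2 (25 to 44.8), 5.43% at day 8 (1.79 to 12.2), 9.47% of positive cells (4.42 to 17.2) and 21.2% of negative cells (13.1 to 31.4). Day 2 thus had the highest share, apart from that of BJ, day 8 and the positive fraction and overlapping that of the negative fraction. The means were 0.99, 2.09, 0.24, 2.57 and 3.15, but the highest cell gave 49.7% of the sum in BJ (a level of 45.5), 58.6% at day 8 (a level of 12.7) and 53.7% in the positive fraction (a level of 131). The positive fraction thus ranked above day 2 by the mean of TGFB1 and below it by share. HNRNPUL1 overlaps TGFB1 on the opposite strand, with means between 14.2 and 28.6, and whether counting used strand is not stated.

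LTBP2 encodes a microfibril-associated protein of the LTBP family that, unlike LTBP1, does not bind latent TGF-beta, and it had the largest ratio between its highest and lowest group mean among the 9 genes. Its level ran from 0 to 313 in BJ (median 13.6), 0 to 312 at day 2 (median 10.3), 0 to 74.1 at day 8 (median 0.16), 0 to 20.5 in the positive fraction (median 0) and 12.9 to 400 in the negative fraction (median 123). No kept negative cell lacked LTBP2 (89.6% had it when all 96 negative cells were counted), and the lowest of them was above the medians of day 2, day 8 and the positive fraction. The means were 22.2, 23.4, 6.61, 0.64 and 135. The share was 89.1% in BJ (80.9 to 94.7) and 81.2% at day 2 (72 to 88.5), which overlapped, then 43.5% at day 8 (33.2 to 54.2), 10.5% in the positive fraction (5.16 to 18.5) and 100% of negative cells (95.8 to 100). The middle 50% of negative cells, from 75.5 to 175, lay above the middle 50% of each other group, which reached 29.01 at most.

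LTBP1, which ties the latent ligand to the matrix, was found in a like share of cells in every group. The share was 28.3% in BJ (19.4 to 38.6), 18.8% at day 2 (11.5 to 28), 27.2% at day 8 (18.4 to 37.4), 25.3% in the positive (16.9 to 35.2) and 28.2% in the negative fraction (19 to 39), and all these intervals overlapped. The means were 2.47, 2.62, 5.53, 12.5 and 8.83, with 39.8% of the positive fraction's sum in one cell at 473. What differed more than the share was the level where the gene was found: the median among cells with LTBP1 was 5.45 in BJ, 8.02 at day 2, 18.3 at day 8, 12.6 among positive and 26.6 among negative cells.

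**Figure D1:**
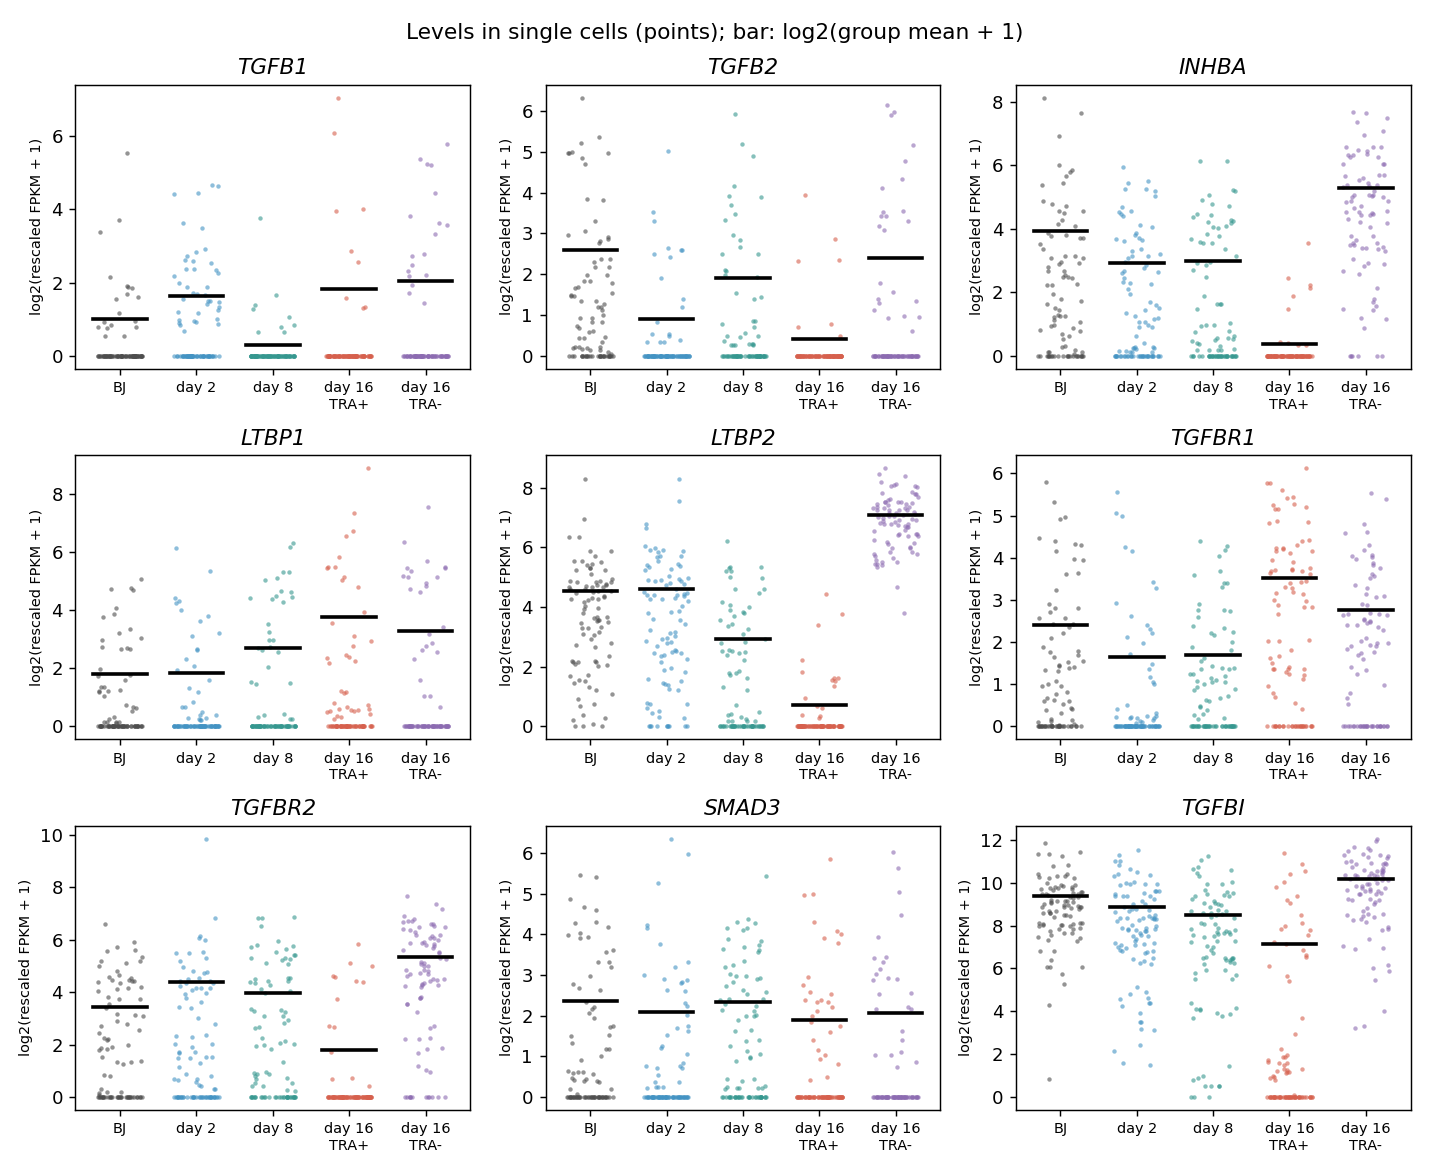
Levels of the 9 genes in single cells: each point is a kept cell, the vertical axis is log2(rescaled FPKM + 1), the horizontal axis the group (TRA+ and TRA- are the TRA-1-60 positive and negative fractions), and the bar is log2(group mean + 1). LTBP2 lies between 12.9 and 400 in the negative fraction and between 0 and 20.5 in the positive fraction, and 1 day-2 cell stands at 925 for TGFBR2.

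The 2 receptor genes parted at day 16. TGFBR2, the ligand-binding type II receptor, ran from 0 to 96.5 in BJ (median 1.73), 0 to 925 at day 2 (median 1.02), 0 to 115 at day 8 (median 2.02), 0 to 55.9 in the positive fraction (median 0) and 0 to 203 in the negative fraction (median 25.8). Its share was near 50% in the first 3 groups, at 54.3% (43.6 to 64.8), 50% (39.6 to 60.4) and 51.1% (40.4 to 61.7), and then 11.6% in the positive (5.92 to 19.8) and 84.7% in the negative fraction (75.3 to 91.6). The negative fraction was high and the positive fraction low against all 3 earlier groups by share, with no overlap of intervals. Over all 96 negative cells, without the filter, the share of TGFBR2 was 75%. The means were 9.85, 19.7, 14.8, 2.47 and 40.03, and at day 2 a single cell at 925 gave 49% of the sum, so the order of day 2, day 8 and BJ by mean is not matched by their shares.

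TGFBR1, the type I receptor kinase, had its highest mean in the positive fraction. It ran from 0 to 54.4 in BJ (median 0.53), 0 to 46.2 at day 2 (median 0), 0 to 20.2 at day 8 (median 0.38), 0 to 68.7 in the positive (median 3.16) and 0 to 45.1 in the negative fraction (median 2.84). The share was 43.5% in BJ (33.2 to 54.2), 20.8% at day 2 (13.2 to 30.3), 41.3% at day 8 (31.1 to 52.1), 66.3% in the positive (55.9 to 75.7) and 62.4% in the negative fraction (51.2 to 72.6). By share over all kept cells the intervals of the 2 fractions overlapped, and the positive fraction was apart from BJ, day 2 and day 8. The means were 4.33, 2.13, 2.26, 10.5 and 5.74. Among positive cells with at least 4000 detected genes the share of TGFBR1 was 85.7%, whereas that of TGFBR2 was 17.5%, so the split between the receptor genes in this fraction was also present in its cells with more genes. Among negative cells with at least 4000 detected genes the shares of TGFBR1 and TGFBR2 were 61% and 86.6%.

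Within single cells, both receptor transcripts were found together in 26 of 92 BJ cells (28.3%), 11 of 96 at day 2 (11.5%), 25 of 92 at day 8 (27.2%), 10 of 95 positive cells (10.5%) and 45 of 85 negative cells (52.9%). In the positive fraction 53 cells (55.8%) had TGFBR1 alone and 1 cell had TGFBR2 alone, and in the negative fraction 8 had TGFBR1 alone and 27 TGFBR2 alone. At day 2 the pattern was the other way round from the positive fraction, with TGFBR2 alone in 37 cells and TGFBR1 alone in 9. A TGF-beta ligand transcript, TGFB1 or TGFB2, was found with both receptors in 17 BJ, 6 day-2, 11 day-8, 1 positive and 19 negative cells. What the separate shares of these genes would give was not computed, so the counts do not show that the transcripts go together.

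**Figure D2:**
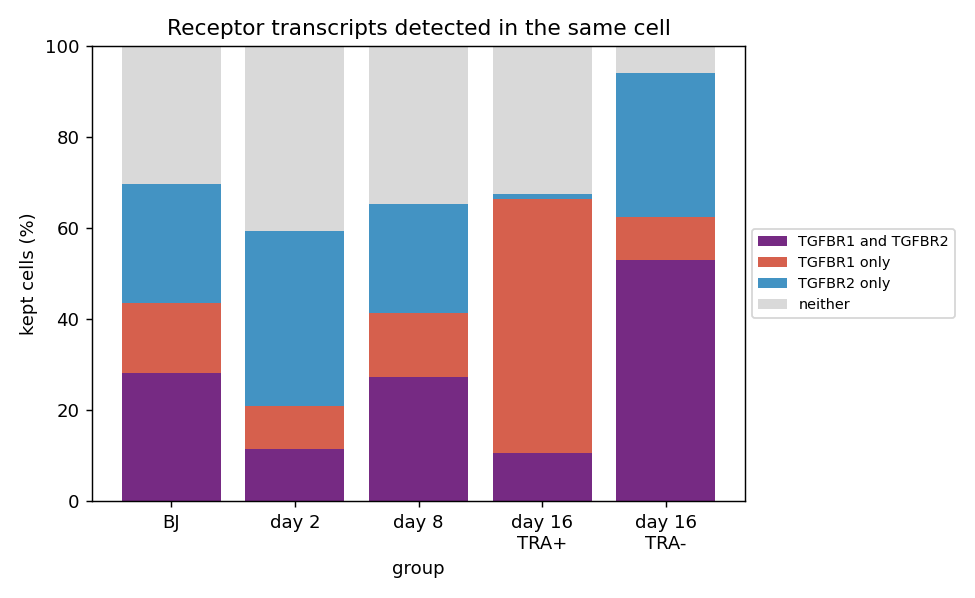
Share of kept cells (%) in each group with TGFBR1 and TGFBR2 transcripts at a value of 1 or more, as stacked bars. TGFBR1 alone was found in 55.8% of positive cells, and both transcripts in 52.9% of negative cells.

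SMAD3, the transcription factor that the receptors activate, was the member with the smallest ratio between its highest and lowest group mean. It ran from 0 to 42.8 in BJ (median 0.21), 0 to 80.7 at day 2 (median 0), 0 to 42.7 at day 8 (median 0.97), 0 to 56.9 in the positive (median 0) and 0 to 64.3 in the negative fraction (median 0). The means of SMAD3 were 4.14, 3.28, 4.09, 2.71 and 3.20, and no comparison of groups reached 2-fold. When all cells were used, those left out by the filter included, SMAD3 was called in 3 comparisons with day 8 (1.26 for day 8 against day 2, -1.48 and -1.42 for the positive and negative fraction against day 8). Day 8 had the highest share, 48.9% (38.3 to 59.6), against 37% in BJ (27.1 to 47.7) and 26% (17.6 to 36), 26.3% (17.8 to 36.4) and 27.1% (18 to 37.8) at day 2 and in the positive and negative fractions. The interval of day 8 overlapped that of BJ and was above those of day 2 and both fractions.

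TGFBI, a secreted matrix protein named for its induction by TGF-beta, had the highest mean of the 9 genes in every group, on a scale per transcript length. It ran from 0.80 to 3728 in BJ (median 476), 1.85 to 2938 at day 2 (median 245), 0 to 2467 at day 8 (median 184), 0 to 2704 in the positive fraction (median 0) and 8.41 to 4248 in the negative fraction (median 924). The means of TGFBI were 663, 466, 357, 142 and 1153. Cells with TGFBI made up 98.9% of BJ, 100% of day 2, 89.1% of day 8 (80.9 to 94.7), 43.2% of the positive (33 to 53.7) and 100% of the negative fraction. Over all 96 negative cells, without the filter, the share of TGFBI was 92.7%. Neighbours in the order of means, negative, BJ, day 2 and day 8, overlapped in the middle 50% of their cells, while the positive fraction lay below the middle 50% of day 8.

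Among positive cells TGFBI was split rather than low throughout. It was at 0 in 49 of 95 cells and under 1 in 54, between 1 and 11.8 in 18, and between 41.3 and 2704 in 23, with no cell between 11.8 and 41.3; the value of 12 used to part the cells was set after the levels were seen. Of the 41 positive cells with TGFBI, 35 had NANOG and 37 had TDGF1, both pluripotency genes, against 45 and 50 of the 54 cells without it. COL1A2, a chain of type I collagen, was found in 31 of the 41 and in 26 of the 54. Of the other fibroblast genes set beside it, COL3A1 was found in 4 of the 41 and 4 of the 54, and LUM, a proteoglycan, in 2 and 1. NANOG was found in 80 of all 95 positive cells (84.2%) and COL1A2 in 57. NANOG was in 11 of the 11 cells with TGFBR2, 8 of the 10 with LTBP2 and 4 of the 6 with INHBA, and COL1A2 in 7, 6 and 3 of them. These are counts of few cells, with no test.

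**Figure D3:**
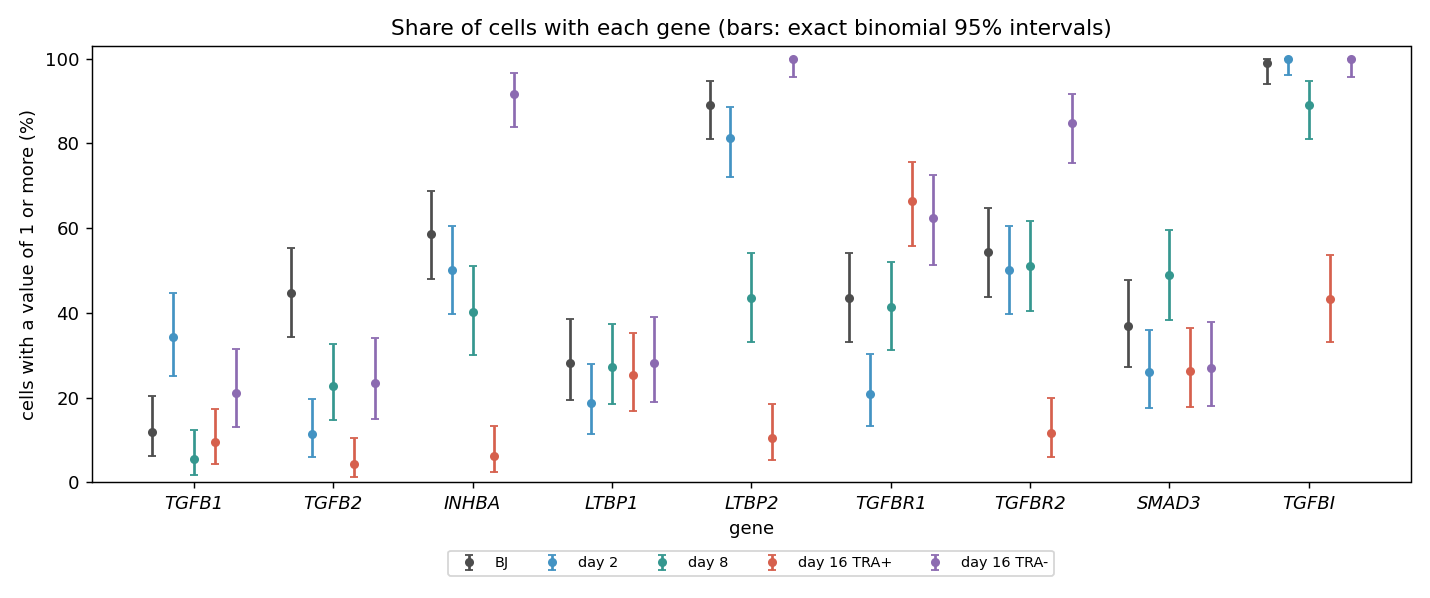
Share of kept cells (%) in which each gene on the horizontal axis was detected; points are the 5 groups (TRA+ and TRA-, the TRA-1-60 positive and negative fractions) and bars are exact binomial 95% intervals. LTBP2 runs from 10.5% in the positive to 100% in the negative fraction, and LTBP1 keeps between 18.8% and 28.3%.

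The comparisons below use log2((mean + 1)/(mean + 1)), which understates the ratio of low genes. A gene was called at 2-fold or more where either mean was 1 or more and the mean of log2(value + 1) differed in the same direction. At day 2 against BJ, 0 of 9 members were at least 2-fold higher and 2 were lower, TGFB2 (log2 ratio -1.69) and INHBA (-1.004), where 12.2% of 12480 measured genes were higher and 12.1% lower. With mean log2 values TGFB2 was at -0.99. The median over the members was -0.26, against -0.02 over all measured genes. At day 8 against day 2, 0 of 9 were higher and 2 were lower, LTBP2 (-1.68) and TGFB1 (-1.32), against 13% higher and 12.5% lower of all genes, and the median was 0.06 for the members and 0.06 for all genes. TGFB1 was at -0.74 with mean log2 values, and INHBA, at 0.07 here, was at -1.84 on the FPKM as deposited. A share of 12.1% or 12.5% of 9 genes is about 1 gene.

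At day 16, 0 of 9 members were at least 2-fold higher and 5 were lower in the positive than in the negative fraction, where 24.8% of 14060 genes were higher and 21.4% lower. The 5 were LTBP2 (log2 ratio -6.37), INHBA (-4.93), TGFBR2 (-3.56), TGFBI (-3.01) and TGFB2 (-2.002), and the remaining ratios ran from -0.21 for TGFB1 to 0.78 for TGFBR1, which was at 1.29 among cells of at least 4000 genes. The median over the members was -2.002, the value of TGFB2, against 0.06 over all genes. The call for TGFB2 was lost when means of log values were compared (-0.70). The fibroblast marker sums, given with the check of the labels, were also lower in the positive fraction, and their part in these differences was not tested.

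Against day 8, the positive fraction had 3 of 9 members at least 2-fold higher (30.3% of genes) and 5 lower (11.6%). TGFBR1 was higher (log2 ratio 1.82), as were TGFB1 (1.53) and LTBP1 (1.05), but the last 2 rest on few cells: without the 5% of highest values in each group they were at 0.11 and 0.18. INHBA (-2.62), LTBP2 (-2.21), TGFBR2 (-2.19), TGFB2 (-1.496) and TGFBI (-1.33) were lower, while the median of all genes was 0.49 and that of the members -1.33. Among cells of at least 4000 genes TGFBI was at -0.82, and with log means TGFB2 was at -0.64.

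In the negative fraction against day 8, 6 of 9 members were at least 2-fold higher (28.4% of genes) and 0 were lower (10.6%). LTBP2 (log2 ratio 4.16), INHBA (2.30), TGFB1 (1.75), TGFBI (1.69), TGFBR2 (1.37) and TGFBR1 (1.05) were higher, and the median of the members was 1.37, against 0.49 for all genes. TGFB1 was below 2-fold with log means (0.58) and without the highest values (0.94), and TGFBR1 in 4 alternatives (0.80 to 0.99). These comparisons share groups with each other and are not independent.

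Some members were higher in the negative fraction than in the fibroblasts it came from, as was the median of all genes. Against BJ, 5 of 9 members were at least 2-fold higher (31.4% of genes) and 0 were lower (13%): LTBP2 (log2 ratio 2.55), TGFBR2 (1.92), LTBP1 (1.501), INHBA (1.37) and TGFB1 (1.06). TGFBI was at 0.80, and the median of the members was 1.06, against 0.51 for all genes. TGFB1 was below 2-fold in 4 alternatives (0.35 to 0.95), and LTBP1 with log means (0.38). LTBP2, TGFBR2 and INHBA stayed at 2-fold or more in every alternative, so the count fell to 3 of 9 at the lowest.

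**Figure D4:**
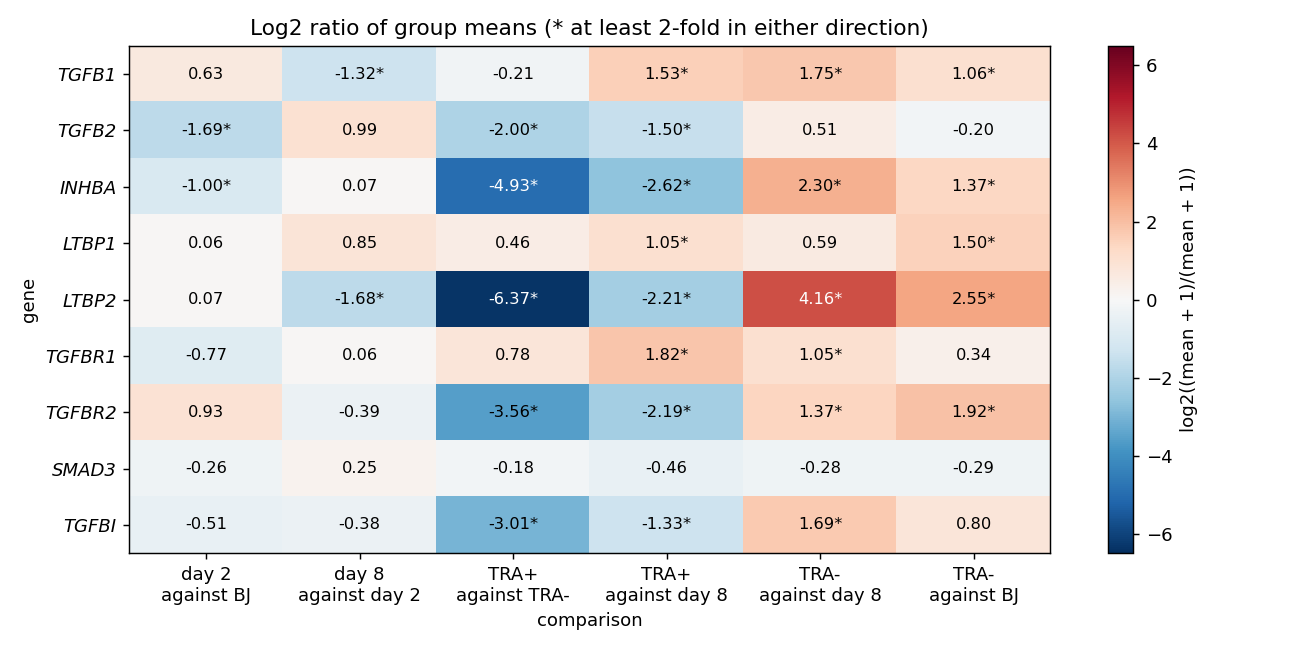
Log2 ratios of group means, log2((mean + 1)/(mean + 1)), for the 9 genes (rows) in 6 comparisons (columns); red is higher and blue lower in the first group named, and a star marks a call of at least 2-fold. The lowest ratio is that of LTBP2 in the positive against the negative fraction, at -6.37, and SMAD3 has no star.

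Other genes of the pathway were taken as 6 lists with 72 genes beside the members. Across the 6 lists, 8 of 65 measured genes were at least 2-fold higher and 38 lower in the positive than in the negative fraction, where 24.8% of all genes were higher and 21.4% lower. In the negative fraction against day 8 it was 44 higher and 0 lower of 63, where 28.4% of all genes were higher and 10.6% lower. Under the 9 alternatives, run on the lists after these counts were seen, it was 8 to 12 higher and 32 to 40 lower in the first comparison and 35 to 46 higher and 0 to 1 lower in the second. The 29 induced targets showed most of this: 0 were higher and 27 lower in the positive than in the negative fraction (median log2 ratio -3.33), and 25 of 29 were higher in the negative fraction than at day 8 (median 2.18). Against day 8, 18 of 60 measured genes of the lists were higher and 18 lower in the positive fraction. Of all genes 30.3% were higher and 11.6% lower there. For the lists it was 11 to 22 and 16 to 20 under the alternatives. Of the targets 1 of 27 was higher and 12 lower (median -0.30, against 0.49 for all genes). SMADs and cofactors had 6 of 9 higher and 0 lower, and inhibitors and feedback genes 7 of 11 higher and 3 lower. Under the alternatives SMADs and cofactors had 3 to 6 higher and 0 to 1 lower, and inhibitors and feedback genes 6 to 8 and 2 to 3. Over the earlier steps 3 of 28 targets were higher (COMP, BHLHE40 and CDKN1A) and 11 lower at day 2 than in BJ, against 12.2% and 12.1% of all genes. At day 8 against day 2, 2 of 29 were higher (LMCD1 and TSPAN2) and 16 lower, against 13% and 12.5%. TGFBI itself was under 2-fold in both on the means, but at -1.07 at day 2 against BJ with mean log2 values. The target list shares COL1A1, COL1A2 and COL3A1 with the fibroblast markers.

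Targets did not all follow TGFBI. CTGF, a matricellular protein, had means of 480 in BJ, 236 at day 2, 111 at day 8, 118 among positive and 300 among negative cells, so the mean of the negative fraction was below that of BJ. COMP, a matrix protein of cartilage and tendon, had means of 1.86, 9.56, 3.56, 0.51 and 411. Like TGFBI it was highest in the negative and lowest in the positive fraction, but it was lower in BJ than at day 2. COL1A1, a chain of type I collagen, had 635, 264, 45.6, 7.75 and 1162, the same order of groups as TGFBI. Against BJ the negative fraction had 9 of 29 targets at least 2-fold higher and 6 lower, where 31.4% of all genes were higher and 13% lower, and the median was 0.51 for both.

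Of the inhibitors and feedback genes of the pathway, 5 of 11 were higher (LEFTY1, LEFTY2, SKIL, BAMBI and FST) and 4 lower (PMEPA1, DCN, FSTL3 and SMURF2) in the positive than in the negative fraction, again against 24.8% and 21.4% of all genes. BAMBI, a decoy receptor, averaged 113 and 11.1 there, and FST, the activin-binding follistatin, 107 and 8.02, opposite to INHBA. SMAD7, the inhibitory SMAD induced by the pathway, had means of 36.7 in BJ, 23.4 at day 2, 7.09 at day 8, 24.6 among positive and 37.2 among negative cells. SKIL, a SMAD corepressor, was highest in the positive fraction (54.7, against 7.95 to 18.5 elsewhere), and PMEPA1, a feedback inhibitor that traps SMADs, in the negative fraction (116, against 2.85 to 19.8 elsewhere). LEFTY1 and LEFTY2, inhibitors of Nodal, averaged 493 and 1328 in the positive fraction and were listed at 0 in all BJ cells. In the negative fraction LEFTY2 was detected in 31 of 85 cells with a mean of 98.3, its highest cell being at 4408.

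Among the other receptors and co-receptors ENG and ACVRL1 were, like TGFBR2, lower in the positive than in the negative fraction. ENG, a co-receptor, had means of 48.8, 36.5, 15.3, 2.89 and 42.2 over BJ, day 2, day 8, positive and negative, and ACVRL1, a type I receptor, had 1.07, 1.14, 3.04, 0.18 and 12.1. They were the 2 lower of 6 measured genes in this list, where 21.4% of all genes were lower and 24.8% higher, and the 1 higher was ACVR2B, an activin type II receptor (8.32 in positive and 0.33 in negative cells). Of 9 SMADs and cofactors 2 were higher and 0 lower there, a higher share close to that of all genes (24.8%), and 2 to 5 were higher under the 9 alternatives: FOXH1, a DNA-binding partner of SMAD2, had means of 23.6 in positive and 0.73 in negative cells, and TGIF2, a SMAD corepressor, 39.4 and 16.4.

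In the latency and activation list, 0 of 8 were higher and 5 lower (THBS1, LRRC32, LTBP3, LTBP4 and MMP14) in the positive than in the negative fraction, where 24.8% of all genes were higher and 21.4% lower. THBS1, which can activate latent TGF-beta, had means of 639, 298, 37.2, 3.12 and 214 in the 5 groups, and LRRC32, which presents latent TGF-beta on the cell surface, reached 15.8 in the negative fraction against 0.0047 to 1.84 elsewhere. Of 5 further ligands 2 were measured in that comparison and neither reached 2-fold; TGFB3, the other TGF-beta ligand gene, averaged 0.58 and 2.11 in the positive and negative fraction, and GDF11, a related ligand, 1.95 and 2.54.

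**Figure D5:**
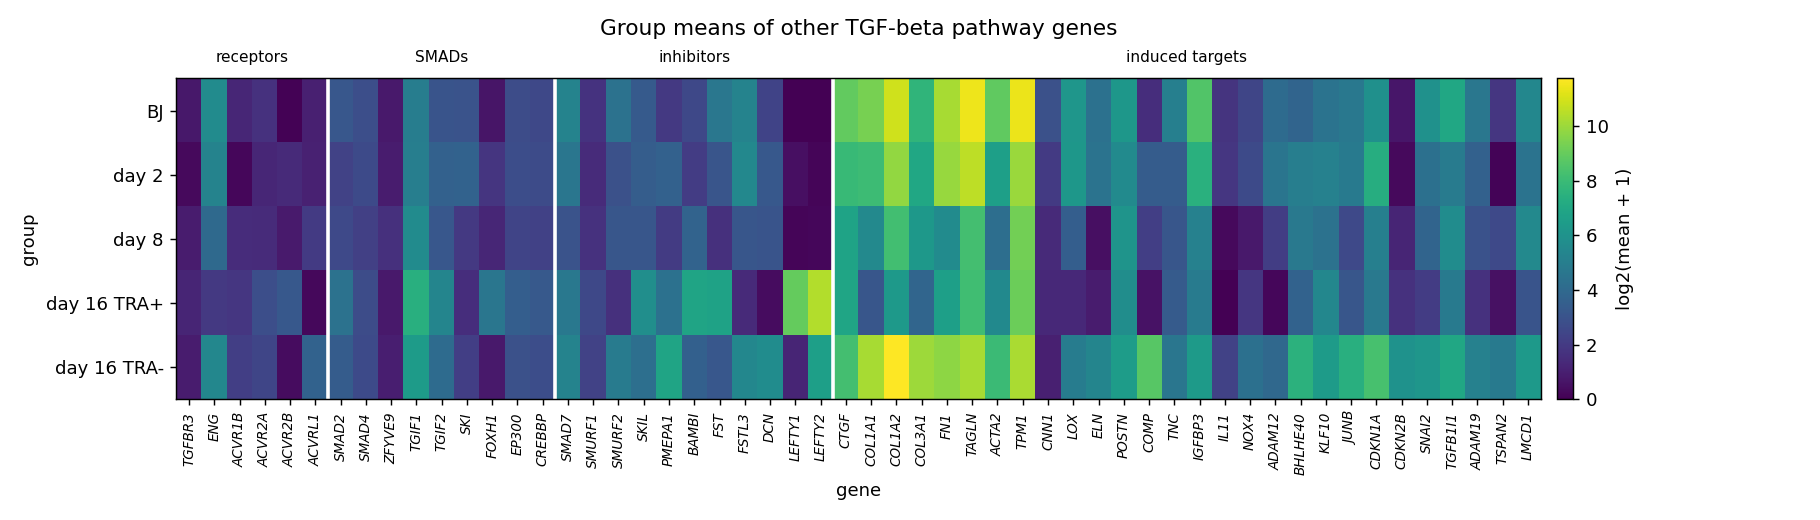
Group means, as log2(mean + 1) by colour, of receptors, SMADs, inhibitors and induced targets other than the members (columns) in the 5 groups (rows), each shown gene having a mean that reached 1 in a group. LEFTY1 and LEFTY2 are bright in the positive fraction, at 493 and 1328, and COMP in the negative fraction, at 411.

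Cell by cell, the correlations between members were low. After each group's mean was subtracted from log2(value + 1), the 36 pairs of members had Pearson r between -0.03 and 0.15 over 460 cells (median 0.07). TGFB1, TGFB2, LTBP1 and SMAD3 were found in a minority of cells in every group, and how far their zeros limit r was not tested. The genes most like each member were sought among 11585 genes detected in at least 10% of cells, and values of 0.3 or more were found for 4 members. TGFBI was most like MMP2, a matrix protease (r = 0.46), TPM1, a tropomyosin (0.45), and PALLD, an actin-associated protein (0.42). LTBP2 was most like COL6A3 (0.35) and COL1A1 (0.30), both collagen chains, and INHBA most like THBS1 (0.33) and AMIGO2 (0.30). TGFBR1 was most like ARPC5 (0.34), EIF3L (0.33) and ANXA2P2 (0.32), and its own r with the number of detected genes per cell was 0.33, that of these genes 0.69, 0.58 and 0.47. All these values come from cells that share a group, a table and the scaling to 1 total, and they are given as a description.

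Values of 2 related families stand beside these. NODAL, the ligand that LEFTY1 and LEFTY2 inhibit, averaged 509 in the positive fraction and under 1 in each other group, and COL1A2 had means of 76.8 in positive and 3401 in negative cells.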

How the data were processed

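Polyadenylated RNA of single cells was sequenced on C1 chips with STRT scripts and Nextera XT libraries, per the labels' protocols. The deposited values are FPKM, in 1 table per group; the authors used STAR, Cuffnorm and hg19, per the submitters' processing notes, and versions, strand use and whether the 5 tables were normalized together are not given in the sources used here. FPKM are not counts, so no count test was used, and with 1 sample per group no test was run. FPKM were rescaled to 1000000 per cell, and 20 of 480 cells were left out. All columns were used, and identical cells were looked for and not found. Doublets were not called, and leaving out the 5% of cells with most genes was an alternative. Scripts ran in Python 3.11.15 with pandas 2.3.3 and scipy 1.17.1. The call rule was tested on simulated data in which only genes of higher mean were changed, by more than 2-fold. That test does not cover low genes or calls near 2-fold. The members, lists and alternatives were chosen with earlier results of these data known. Other pathway genes were named where their log2 ratio was the largest or second largest of their list in any comparison; SMAD7, SKIL, PMEPA1 and CTGF were always named, and 1 further target that the rule names is not reported here. The further genes named beside a short count, COL1A2, COL3A1, NODAL and the genes in which tables stand apart were chosen after their values were seen. Most-like genes were the 3 with the highest r, given from 0.3.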

Additional observations from a re-analysis of the deposited data

How the results depend on the processing

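The members' ratios, their medians and counts, and the counts of the pathway lists were recomputed under 9 alternatives: FPKM as deposited, scaling on 24 housekeeping genes, totals without mitochondrial and small RNA genes, differences of mean log2 values, a pseudocount of 0.1, all cells, cells of at least 4000 genes, and leaving out the 5% of cells with most genes or the 5% of highest values. The shares of cells were recomputed under 6 settings, 5 of these and detection at 5 in place of 1. The marker sums, the co-detection counts, the parting of TGFBI and the genes of like pattern were not recomputed. The median over the members moved by less than 1.5-fold in 50 of 54 cases. The median of the positive against the negative fraction (-2.002) was -0.70 with mean log2 values. It was -3.02 with the pseudocount of 0.1 and -1.26 without the highest values. That of the positive fraction against day 8 (-1.33) was -0.68 with mean log2 values. A median over the 9 members is the value of 1 of them. In the first comparison this was TGFB2, both at -2.002 and at -0.70. In the second it was TGFBI at -1.33 and SMAD3 at -0.68. Of 486 ratios of single members, 442 stayed on their side of 2-fold, 29 dropped below it and 13 passed it. The sign changed in 20, of which 18 were under 2-fold on both sides. The other 2 were INHBA on the FPKM as deposited, at 0.97 in place of -1.004 for day 2 against BJ and at -1.84 in place of 0.07 for day 8 against day 2. Counts of members ranged from 0 to 1 higher and 1 to 2 lower at day 2 against BJ, 0 to 2 and 1 to 3 at day 8 against day 2, 0 to 1 and 4 to 5 for the positive against the negative fraction, 1 to 3 and 4 to 6 for the positive fraction against day 8, 4 to 6 and 0 to 1 for the negative fraction against day 8, and 3 to 5 and 0 to 0 for the negative fraction against BJ. Of the induced targets, 2 to 6 were higher and 9 to 13 lower at day 2 against BJ, 1 to 4 and 12 to 17 at day 8 against day 2, 0 to 0 and 22 to 28 for the positive against the negative fraction, 23 to 27 and 0 to 0 for the negative fraction against day 8, and 9 to 12 and 6 to 8 for it against BJ. For the positive fraction against day 8, 1 to 3 targets were higher and 10 to 14 lower. Of all genes, 3.68% to 20.9% were higher and 4.73% to 16.5% lower at day 2 against BJ under the alternatives. At day 8 against day 2 it was 11.2% to 17.2% and 3.43% to 18.7%. The positive fraction had 9.11% to 33.5% and 16.1% to 29.6% against the negative. Its shares against day 8 were 6.98% to 36.5% and 10.1% to 17.1%. The negative fraction had 13% to 34.7% and 9.55% to 13.5% against day 8. Against BJ it had 18.8% to 39.9% and 6.83% to 16.8%. Of 270 shares of cells, 39 moved out of their interval, 31 of them where detection was set at 5.

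Scaling also moved the tables as a whole. On FPKM as deposited the shares of genes higher and lower were 20.9% and 11% at day 2 against BJ, 11.2% and 18.7% at day 8 against day 2, 19.3% and 13.5% for the negative fraction against day 8 and 23.5% and 16.8% for it against BJ. With housekeeping scaling they were 33.5% and 16.1% for the positive against the negative fraction, where the median of all genes was 0.48 in place of 0.06. No paired analysis was possible because the replicate numbers in the labels number cells and no result comes from a test. With no read counts, what depth limits in low genes such as TGFB1 cannot be given.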
